A study of Mus musculus with 8 samples.

Results

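A set of 7 imprinted genes of mouse chromosomes 6 and 7 was examined, Peg3, Snrpn, Mest, Kcnq1ot1, Peg10, Nap1l5 and Inpp5f, each by a fixed box of 6 kb around the region that carries its maternal DNA methylation. The 7 boxes were set by position on the mm9 build and not by their tags, though with earlier results of these data known. They stand beside 421861 other windows of 6 kb that held a tag in any library. H3K9me3, a mark of repressed chromatin, was measured by ChIP-seq in feeder-free JM8 embryonic stem (ES) cells of the C57BL/6N strain. All cells carried a disrupted tm2 allele of Setdb1, a conditional allele and, at Rosa26, a CreERT2 cassette whose Cre is switched on by a drug. The conditional allele is named tm1a in the sample labels and tm1c in the methods of the study, and the allele left after Cre is named tm1c and tm1d in turn. The libraries at T=0 came from untreated cells, and those at T=2d, T=4d and T=6d from cells collected 2, 4 and 6 days after 4′OHT was first added (0.8 uM, kept on for 48 h), the agent that activates the Cre. The Upstate-type antibody was used at all 4 time points, and lots 58206 and 638466 of an Abcam antibody at T=0 and T=6d. There was 1 library per antibody and time point, 8 in all, and no source used here says how many lines they came from. Libraries of control cells with an intact Setdb1 allele and input libraries were not analysed here, so treatment, time in culture and loss of Setdb1 cannot be told apart. Setdb1 RNA or protein was not measured by this assay, so its loss was not checked.

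Imprinted genes are read from the copy of 1 parent. At the genes described here the maternal copy is methylated in the egg, the methylated region overlaps a promoter, and the paternal copy is the one transcribed. In ES cells the zinc finger protein ZFP57 binds a methylated hexamer, TGCCGC, at such regions and brings in TRIM28 (KAP1), which recruits the histone methyltransferase SETDB1. The methylated copy then carries H3K9me3, so these regions are places where SETDB1 is known to act and where the comparison before and after its deletion asks how much of the mark is left.

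Promoter sequences from RefSeq (GRCm38.p6, 250 bases before to 50 after each start) were matched for 6 of the 7 members, and Peg10 had no entry. They belong to another build than the tags, so they are shown for their sequence and were not placed on the tag profiles. The hexamer TGCCGC, searched on both strands (TGCCGC and GCGGCA), occurs at least once in 11.6% of all 32851 promoters and at least 2 times in 1.53%. The 4 sequences below, each 5′ to 3′ along the gene with the hexamer in capitals, show promoters with and without it. Peg3, whose tags fell most with the Upstate-type antibody, lies on the minus strand at chr7:6730370-6730669 and holds 0 hexamers and 13 CpG. Mest lies on the plus strand at chr6:30737800-30738099 and holds 2 hexamers and 17 CpG; a start 3 bases further on gives the same matches, and the upstream start of the table has none. Snrpn, at the most downstream of its 4 starts, lies on the minus strand at chr7:60005150-60005449 and holds 1 hexamer, at position -2 from the start. Nap1l5, whose tags were not called lower with any antibody at equal library totals, lies on the minus strand at chr6:58907077-58907376 and holds 2 hexamers, at positions -24 and 27.
Peg3: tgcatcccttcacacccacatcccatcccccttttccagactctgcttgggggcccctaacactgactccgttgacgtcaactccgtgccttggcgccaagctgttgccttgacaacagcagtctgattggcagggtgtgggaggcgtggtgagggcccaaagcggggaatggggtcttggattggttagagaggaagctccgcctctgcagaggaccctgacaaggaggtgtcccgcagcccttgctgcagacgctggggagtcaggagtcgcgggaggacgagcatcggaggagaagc
Mest: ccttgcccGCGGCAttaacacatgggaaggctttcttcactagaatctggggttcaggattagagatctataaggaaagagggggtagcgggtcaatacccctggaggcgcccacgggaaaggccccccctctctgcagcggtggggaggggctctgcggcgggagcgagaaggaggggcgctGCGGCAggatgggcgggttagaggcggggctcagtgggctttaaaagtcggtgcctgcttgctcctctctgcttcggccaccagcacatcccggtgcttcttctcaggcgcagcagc
Snrpn: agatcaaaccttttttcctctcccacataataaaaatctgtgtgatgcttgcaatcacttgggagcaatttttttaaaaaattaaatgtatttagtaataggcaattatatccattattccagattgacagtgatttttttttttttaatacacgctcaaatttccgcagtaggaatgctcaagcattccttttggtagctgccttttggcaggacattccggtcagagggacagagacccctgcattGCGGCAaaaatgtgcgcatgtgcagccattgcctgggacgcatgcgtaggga
Nap1l5: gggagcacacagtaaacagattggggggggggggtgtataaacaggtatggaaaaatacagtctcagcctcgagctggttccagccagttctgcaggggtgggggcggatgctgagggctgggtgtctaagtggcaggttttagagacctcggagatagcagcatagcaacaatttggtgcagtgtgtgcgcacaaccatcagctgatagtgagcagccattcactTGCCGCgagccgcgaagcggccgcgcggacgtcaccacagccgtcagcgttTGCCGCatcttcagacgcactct

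The promoters of Kcnq1ot1 (chr7:143296498-143296797, minus strand) and of the main start of Inpp5f (chr7:128611115-128611414, plus strand) hold 0 hexamers, with 9 and 15 CpG. Whether the hexamer count goes with the change in tags was not tested, since the promoters were not placed on the boxes and Peg10 had no sequence. The counts, 0 at Peg3 and Kcnq1ot1 and 2 at Mest and Nap1l5, therefore cannot decide whether the hexamer goes with the calls. These windows cover only the promoter, may lie outside the box and say nothing about hexamers within it.

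Each Upstate-type library held 6887819 tags, each of lot 58206 held 8503927 and each of lot 638466 held 12194174, equal within an antibody because the authors had brought them to the same number. Only the totals are equal: windows under 1.5 times the median before treatment, taken as background, held 2964556 Upstate-type tags then and 3427625 on day 6. At T=2d and T=4d they held 2894549 and 3342062. Having been chosen as low at the first time point, such windows would tend to hold more tags at a later one. At T=2d they did not. A typical window of 6 kb held a median of 10 to 11 Upstate-type tags, 18 to 19 tags of lot 58206 and 29 to 30 of lot 638466. The share of windows with many tags differed between the antibodies, which does not say whether the same places were marked. Windows at 3 times the library median or more made up 9.07% of all windows in the Upstate-type library at T=0, 1.10% in that of lot 58206 and 0.103% in that of lot 638466. At T=6d the shares were 8.84%, 2.56% and 0.0202%, so lot 58206 alone had more of them than before. Results are therefore given for each antibody, and for all antibodies with and without lot 58206. Whether the 3 antibodies bound the same mark at these boxes was not tested, nor was an exchange of libraries. The rise of lot 58206 reported here rests on its library at T=6d. In that library a comparison box at H19 held 23 tags, against 70 at T=0.

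Before treatment the mark was clearest with the Abcam lots (plot of tags by library). With lot 58206 the boxes held 28 to 108 tags at T=0 and 6 of 7 stood above their 20 kb flanks, all but Nap1l5 (exact binomial test, P below 0.01 and 1.5-fold). The same call was made for 5.00% of all windows tested in that library. Peg3 stood 3.87 times above its flanks, Mest 3.93 times, Snrpn 3.80 times, Kcnq1ot1 3.73 times, Peg10 2.41 times and Inpp5f 1.70 times. Lot 638466 placed 5 of 7 boxes above their flanks against 4.11% of windows, all but Inpp5f and Nap1l5, from 1.79 times at Peg10 to 2.80 times at Mest. The Upstate-type antibody placed 2 of 7 above theirs against 5.75% of windows, Kcnq1ot1 at 1.76 times (P = 5.15e-04, exact binomial test) and Mest at 1.74 times (P = 0.00119). For Mest the flanks include 7 bins of 1 kb without a tag in any library, and without them its Upstate-type call was lost. Its folds with lots 58206 and 638466 were then 3.24 and 2.31, still called but under those of Peg3 and Snrpn. These P-values compare places within 1 library and cover counting error only.

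**Figure D1:**
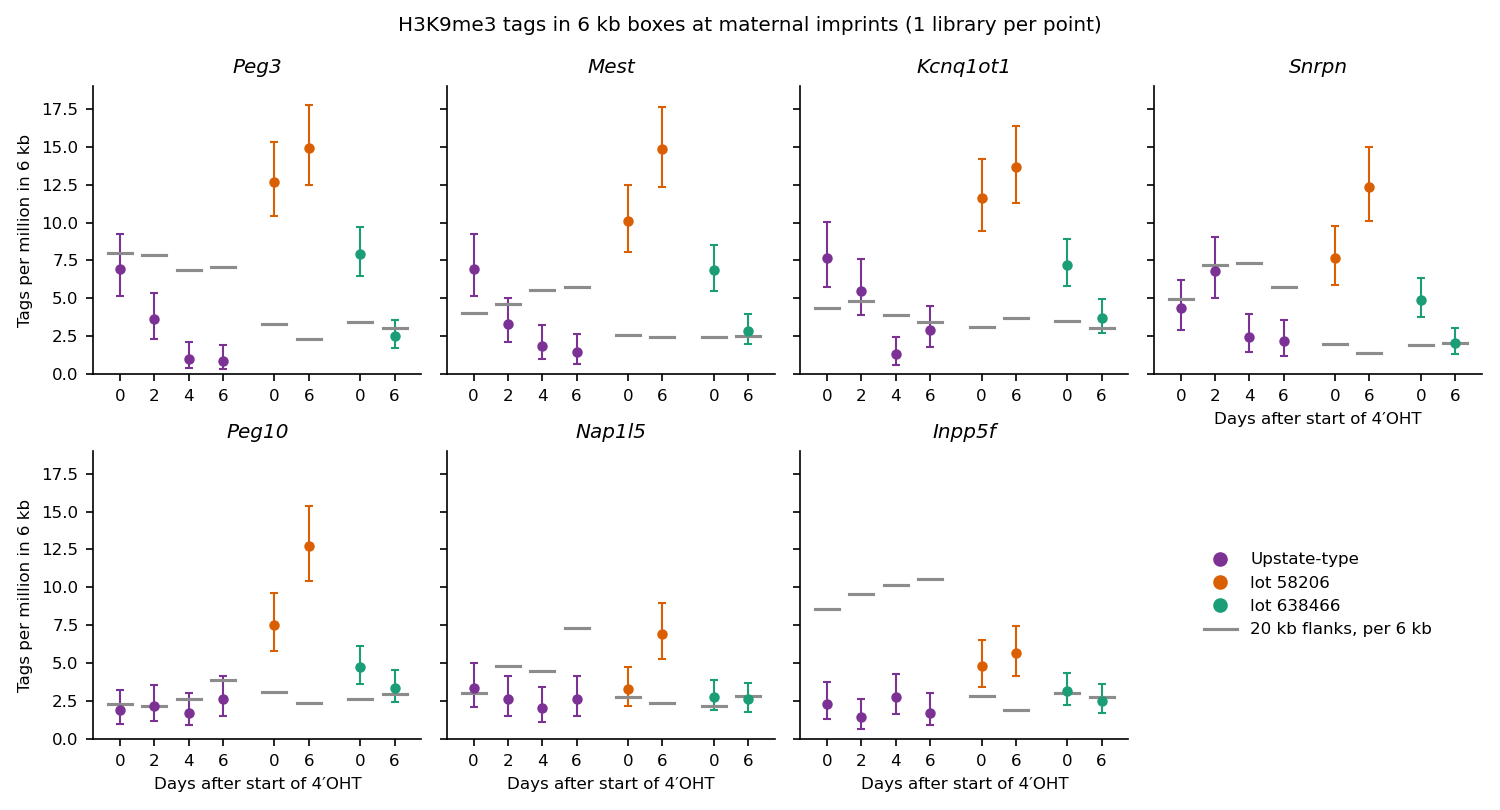
Tags per 1000000 library tags in each 6 kb box (points, 95% Poisson interval) against days after the start of 4′OHT, by antibody, with the density of the 20 kb flanks as grey lines; 1 library per point. Orange points of lot 58206 are as high or higher at day 6, from 4.82 to 5.64 at Inpp5f and from 3.29 to 6.94 at Nap1l5, while purple and green points of Peg3, Mest and Kcnq1ot1 drop.

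Peg3 encodes a zinc finger protein that is expressed from the paternal copy, and its box (chr7:6680001-6686000) lost the largest share of its tags with the Upstate-type antibody and with lot 638466. With the Upstate-type antibody the untreated cells gave 48 tags, followed by 25 at T=2d, then 7 and 6 on the later days. With lot 638466 it held 97 and then 31, and with lot 58206 it held 108 and then 127. Tags were thus fewer at each later time with the Upstate-type antibody and fewer with lot 638466, but not with lot 58206. At T=6d the ratio to T=0 was 0.125 with the Upstate-type antibody (95% exact interval 0.0437 to 0.293, Fisher's exact test P = 3.26e-09) and 0.320 with lot 638466 (0.206 to 0.483, P = 4.16e-09). The fall was already called at T=2d, at 0.521 (P = 0.00954 by Fisher's exact test), though not after adjustment over all windows (adjusted P = 0.0861). With lot 58206 the ratio was 1.18 (0.903 to 1.53, exact P = 0.240). The flanks of the box fell from 186 to 131 tags with that lot, and scaled to them the box was called higher (1.67, exact P = 0.00337). The 4 bins of 1 kb on the side of lower coordinates held 25, 21, 25 and 22 tags with that lot at T=0.

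Mest encodes a protein with an alpha/beta hydrolase fold, and its box (chr6:30684001-30690000) followed Peg3. The Upstate-type antibody gave 48 tags before treatment, followed by 23 at T=2d, then 13 and 10 on the later days. Lot 638466 gave 84 and then 35, and lot 58206 gave 86 and then 126. The Upstate-type tags fell below those of T=0 at every later time, and lot 58206 went the other way. The ratio at T=6d was 0.208 (0.0940 to 0.417, Fisher's exact test P = 4.52e-07) with the Upstate-type antibody and 0.417 (0.273 to 0.625, P = 8.18e-06) with lot 638466. With lot 58206 it was 1.47 (1.11 to 1.95, exact P = 0.00725), short of the 1.5-fold that a call required. In the central 4 kb of the box it was called higher with that lot (1.61, exact P = 0.00464). At T=2d it was 0.479 with the Upstate-type antibody (P = 0.00407 by Fisher's exact test, adjusted P = 0.0501).

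Kcnq1ot1 is a long noncoding RNA that silences neighbouring genes on the paternal copy, and its promoter lies within the gene Kcnq1. Its box (chr7:150479001-150485000) held 53, 38, 9 and 20 tags over the 4 time points of the Upstate-type antibody. It held 88 and then 45 tags with lot 638466, and 99 and then 116 with lot 58206. The lowest count stood at T=4d, 0.170 times that of T=0 (P = 1.05e-08 by Fisher's exact test). By T=6d the ratio was 0.377 (0.214 to 0.642, exact P = 1.42e-04). With lot 638466 the ratio was 0.511 (0.349 to 0.741, exact P = 2.42e-04) and with lot 58206 it was 1.17 (0.888 to 1.55, P = 0.275). Scaled to the flanks of the box, the fall with lot 638466 was no longer called (0.597, exact P = 0.0111), which leaves 3 of 7 boxes called lower with that lot.

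Snrpn encodes a small nuclear ribonucleoprotein, and its methylated region is the imprinting centre of a cluster that in humans is tied to Prader-Willi syndrome. Its box (chr7:67146001-67152000) held 30, 47, 17 and 15 Upstate-type tags. Lot 638466 counted 60 and then 25, and lot 58206 counted 65 and then 105. The highest Upstate-type count was at T=2d and both later counts lay under that of T=0. The Upstate-type ratio at T=6d was 0.500 (0.250 to 0.959, Fisher's exact test P = 0.0357) and was not called. It was called after scaling to background windows (0.433, exact P = 0.00692), while at T=4d the box was called in its central 4 kb (0.250, exact P = 0.00408) and after scaling to its flanks (0.384, exact P = 0.00205). Lot 638466 gave 0.417 (0.250 to 0.675, exact P = 1.87e-04), and lot 58206 gave 1.62 (1.17 to 2.24, P = 0.00267), which was called higher.

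Peg10 and Nap1l5 are retroelement-derived genes, the first from a retrotransposon and needed in the placenta, the second an intronless copy within an intron of another gene. The Peg10 box (chr6:4695001-4701000) held 13, 15, 12 and 18 Upstate-type tags. Lot 638466 counted 58 and then 41, and lot 58206 counted 64 and then 108. The Nap1l5 box (chr6:58854001-58860000) held 23, 18, 14 and 18 Upstate-type tags. Lot 638466 counted 34 and then 32, and lot 58206 counted 28 and then 59. With the Upstate-type antibody and lot 638466 neither box was called. Scaled to its flanks, which gained tags, the Upstate-type ratio of Nap1l5 at T=6d was 0.321 in place of 0.783 (exact P = 6.67e-04) and was then called lower. At T=6d the Peg10 ratio was 1.38 (0.641 to 3.07) and 0.707 (0.462 to 1.07) with these antibodies in turn, and the Nap1l5 ratio was 0.783 (0.398 to 1.52) and 0.941 (0.562 to 1.57). A fall to 0.5 or less lay outside the exact interval only for Peg10 with the Upstate-type antibody and for Nap1l5 with lot 638466. Lot 58206 rose to 1.69 at Peg10 (1.23 to 2.34, Fisher's exact test P = 9.86e-04) and to 2.11 at Nap1l5 (1.32 to 3.43, P = 0.00117).

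Inpp5f encodes an inositol phosphatase, and its imprinted transcript starts within the gene. Its box (chr7:135829001-135835000) held 10 to 48 tags over the 8 libraries. There were 16, 10, 19 and 12 Upstate-type tags, 39 and then 31 of lot 638466, and 41 and then 48 of lot 58206. No ratio was called in either direction. At T=6d they were 0.750 (0.324 to 1.69), 0.795 (0.480 to 1.31) and 1.17 (0.756 to 1.82).

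**Figure D2:**
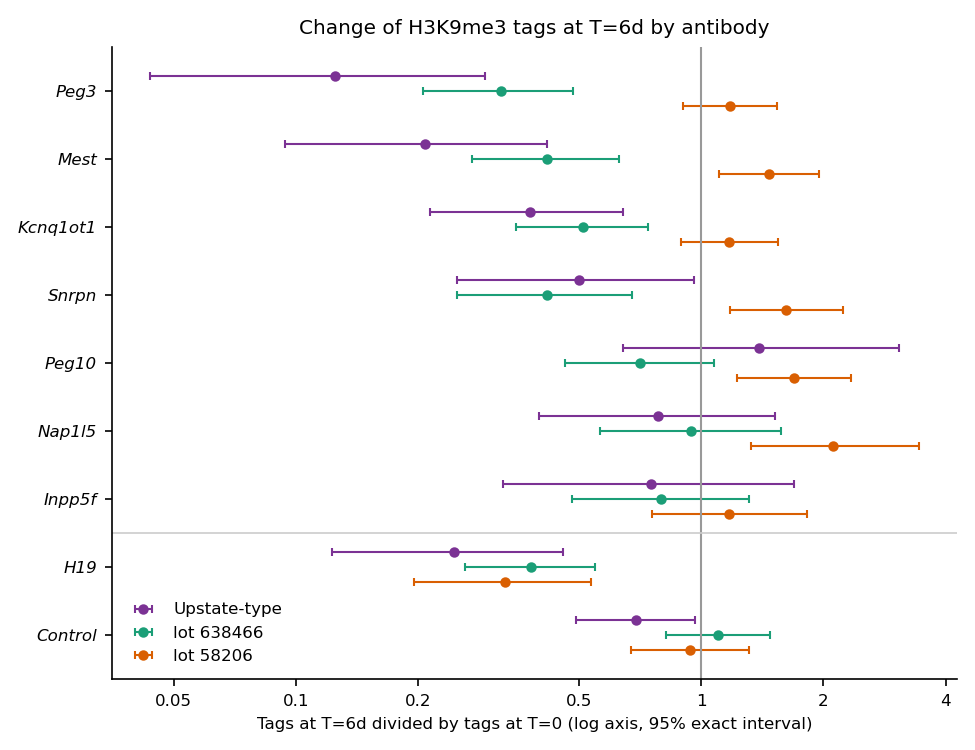
Ratio of tags at T=6d to T=0 in each box (log axis, points with 95% exact interval) by antibody, with the H19 box and a control region of chromosome 4 under the line. Purple and green points of the 4 upper boxes lie left of 1, at 0.125 to 0.511, and all 7 orange points lie right of it, at 1.17 to 2.11, while the orange point of H19 lies at 0.329.

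Counted over the members, the Upstate-type antibody called 2 of 7 boxes lower at T=2d (Peg3 and Mest), 3 at T=4d and 3 at T=6d (Peg3, Mest and Kcnq1ot1 each time), and none higher. With boxes of 10 kb the calls at T=2d numbered 0. Over all windows tested the shares called lower were 1.76%, 6.38% and 9.65%. Windows enriched at T=0, at 3 times the median or more as the mean of both Abcam lots, were called lower in 17.4%, 36.3% and 42.9%. Of the boxes, 3 of 7 were of that class, and they are the 3 called at T=4d and at T=6d, Peg3, Mest and Kcnq1ot1. Lot 638466 called 4 of 7 lower (Peg3, Mest, Kcnq1ot1 and Snrpn), against 8.23% of all windows tested and 22.7% of windows enriched with lot 58206 at T=0, a class that held 5 of the 7 boxes (these 4 and Peg10). Lot 58206 called 0 of 7 lower, against 6.70% of all windows and 68.0% of those enriched with lot 638466 at T=0, a class that held only Peg3 and Kcnq1ot1 of the boxes. It called 3 of 7 higher (Snrpn, Peg10 and Nap1l5), against 10.6% of all windows and 0.922% of the enriched ones, to which none of these 3 belonged, and with boxes of 10 kb it called 1 higher. Summed over the 7 boxes, the Upstate-type tags numbered 231, 176, 91 and 99 in order of time. The same sum fell to 240 from 460 with lot 638466 and stood at 689 after 491 with lot 58206. The windows in these shares are not replicates, and each Fisher test compares 2 libraries, not the conditions.

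The H19 box, a paternally methylated region included for comparison, fell with every antibody. The study shows H19 as an example of reduced H3K9me3 in these same data, so its fall was known when it was picked. A difference from H19 thus compares a member with a region picked for its loss. Its 53 Upstate-type tags became 13, its 113 tags of lot 638466 became 43, and its 70 tags of lot 58206 became 23. With lot 58206 each of the 7 members differed from H19 in its change, with P from 4.05e-09 at Peg10 to 7.03e-05 at Inpp5f by Fisher's exact test on the tags of both boxes. The same held for 43.1% of all windows and boxes at P below 0.01, so such a difference was common in that lot. The control region of chromosome 4 held 77 and then 72 tags with that lot and 91 and then 100 with lot 638466. With the Upstate-type antibody it went from 90 to 62 at T=6d, a ratio of 0.689 (0.490 to 0.963, exact P = 0.0282) that was not called but lies beside the falls of the boxes with that antibody. The ratios of Peg3 and Mest, 0.125 and 0.208, had intervals that lay below 0.490, and that of Kcnq1ot1 did not. With lot 638466 Peg3, Snrpn, Mest and Kcnq1ot1 fell to 0.320 to 0.511 against 0.381 at H19, and P for the difference from H19 ran from 0.252 to 0.788 by Fisher's exact test. At P below 0.01 Nap1l5 alone differed from H19 with that lot, at 0.941 (P = 0.00324 by Fisher's exact test). Inpp5f at 0.795 (P = 0.0148) and Peg10 at 0.707 (P = 0.0285, both by Fisher's exact test) did not pass. The share of all windows that differ from H19 was not measured for that lot or for the Upstate-type antibody. Nap1l5 and Inpp5f had not stood above their flanks with lot 638466 at T=0, so their ratios do not show that an enrichment was kept. With the Upstate-type antibody at T=6d the lowest P for a difference from H19 stood at Peg10 (P = 3.38e-04), Nap1l5 (P = 0.00913) and Inpp5f (P = 0.0392, all by Fisher's exact test), and at the other 4 boxes P was 0.122 to 0.819. None of these 3 had stood above its flanks at T=0 with that antibody.

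The difference between antibodies was tested at each box by Fisher's exact test on the tags of both antibodies at T=0 and T=6d. The Upstate-type antibody and lot 58206 differed at 4 of 7 boxes (13.1% of all windows). At these 4 the Upstate-type ratio was 0.106 times that of the lot at Peg3 (P = 2.58e-09), 0.142 times at Mest (P = 7.02e-09), 0.322 times at Kcnq1ot1 (P = 8.07e-05) and 0.310 times at Snrpn (P = 7.38e-04, all by Fisher's exact test). With tags scaled to the flanks of each box, Kcnq1ot1 lost that call (0.484 times, exact P = 0.0281) and Nap1l5 gained it (0.129 times, exact P = 1.04e-06). Both Abcam lots differed at 5 of 7 boxes (11.0% of windows), the same 4 and Peg10, where the ratio of lot 58206 was 2.29 to 3.88 times that of lot 638466. Here too the flank scaling took Kcnq1ot1 from the called boxes (1.66 times, exact P = 0.0550) and added Nap1l5 (3.48 times, exact P = 7.55e-04). The Upstate-type antibody and lot 638466 differed at 0 of 7 (8.48% of windows), with the lowest P at Peg3 (P = 0.0464 by Fisher's exact test). At Peg3 the interval of each ratio was wide, so a difference of this size is not shown to be absent. In the central 4 kb of the box Mest did differ between these antibodies (0.210 times in place of 0.500, Fisher's exact test P = 0.00955).

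The tags were also followed within the boxes (plot of lot 58206 and lot 638466 profiles in 1 kb bins). With lot 58206 the tags gathered in a summit at T=6d, where the highest 1 kb bin held 30.7% to 54.2% of the tags of its box, a larger share than at T=0 in all boxes but Nap1l5. That share was also larger at T=6d in 4 of 7 boxes with lot 638466 and in 4 of 7 with the Upstate-type antibody, and the difference between antibodies was not tested. The highest bin of the Kcnq1ot1 box held 39 tags at T=0 and 57 at T=6d, that of Snrpn 24 and then 48, that of Mest 20 and then 56, that of Inpp5f 19 and then 26, and that of Nap1l5 14 and then 23, each in the same bin at both times. In these 5 boxes the summit kept its place. At Peg3 and Peg10 the bin just below the box centre shared the highest count with another bin at T=0 and was highest at T=6d, with 25 and then 39 tags at Peg3 and 19 and then 41 at Peg10. All 7 boxes stood above their flanks with lot 58206 at T=6d, at 2.91 to 8.97 times, against 5.55% of windows. With lot 638466 at T=6d 0 of 7 did (3.46% of windows), with densities of 0.837 to 1.22 times the flanks. The Upstate-type antibody also placed 0 of 7 above their flanks at T=6d (5.31% of windows).

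**Figure D3:**
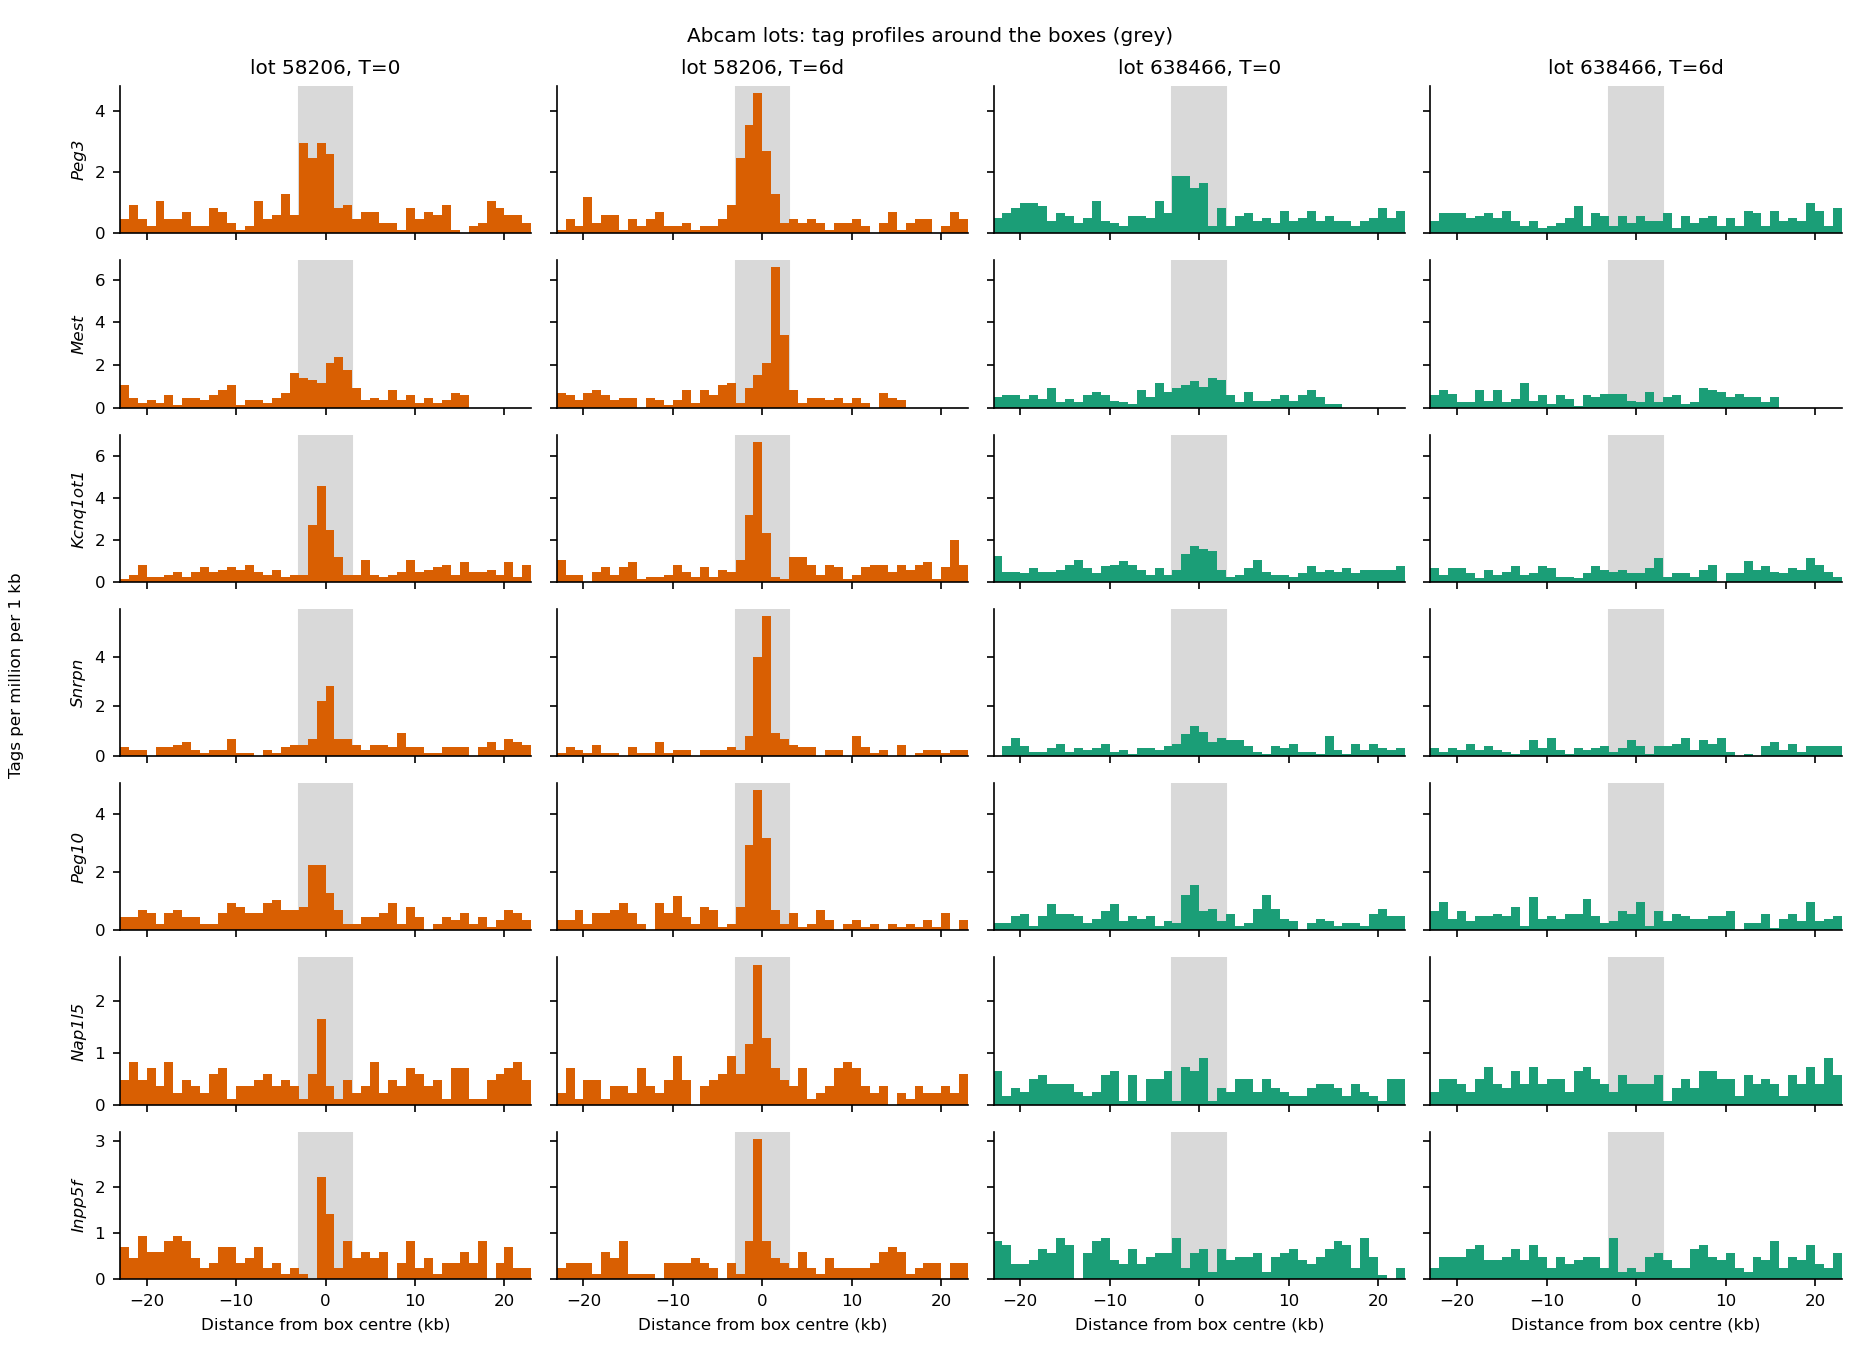
Tags per 1000000 library tags in 1 kb bins against the distance from the box centre for the Abcam lots at T=0 and T=6d; the box is shaded grey and each row has its own vertical scale. The summit of lot 58206 is higher at T=6d, where 1 bin held 48 tags at Snrpn and 56 at Mest, counted before scaling. The rise of lot 638466 over the Peg3, Mest, Kcnq1ot1 and Snrpn boxes at T=0 is not seen at T=6d.

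With the Upstate-type antibody the tags did not centre on the boxes but lay mostly on 1 side (plot of Upstate-type profiles). In all 7 boxes and at all 4 time points the flank downstream of the box, in the direction of the gene's transcription, held more tags than the flank upstream. Other promoters were not measured in this way, so the excess is not shown to be particular to these boxes. At T=0 there were 273 tags downstream and 93 upstream at Peg3, 148 and 36 at Mest, 157 and 44 at Kcnq1ot1, 185 and 44 at Snrpn, 342 and 51 at Inpp5f, 101 and 37 at Nap1l5, and 58 and 49 at Peg10. The excess was more than 2.5-fold in all but Peg10. With the Abcam lots no such excess was seen, since the median ratio of downstream to upstream tags over the 7 boxes was 0.750 for lot 58206 and 0.929 for lot 638466 at T=0, against 3.57 for the Upstate-type antibody. Of the 3 boxes called lower with this antibody, Kcnq1ot1 had fewer tags in its downstream flank as well, 157 at T=0 and 117 at T=6d, while Peg3 and Mest did not by T=6d. At Peg3 that flank held 273, 295, 263 and 286 tags on days 0, 2, 4 and 6, and at Mest it held 148, 179, 219 and 234. The upstream flank of Peg3 went down in the same libraries, with 93, 65, 52 and 40 tags, so the loss of tags there was not limited to the box, whereas that of Mest held 36, 33, 36 and 30. The downstream flank of Peg10 rose from 58 tags at T=0 to 113 at T=6d and that of Nap1l5 from 101 to 243. Over both flanks together the Nap1l5 tags rose from 138 to 337, a ratio of 2.44 (2.00 to 3.00, Fisher's exact test P = 2.87e-20). Transcription of these genes was not measured in these libraries, and its part in the side was not tested.

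**Figure D4:**
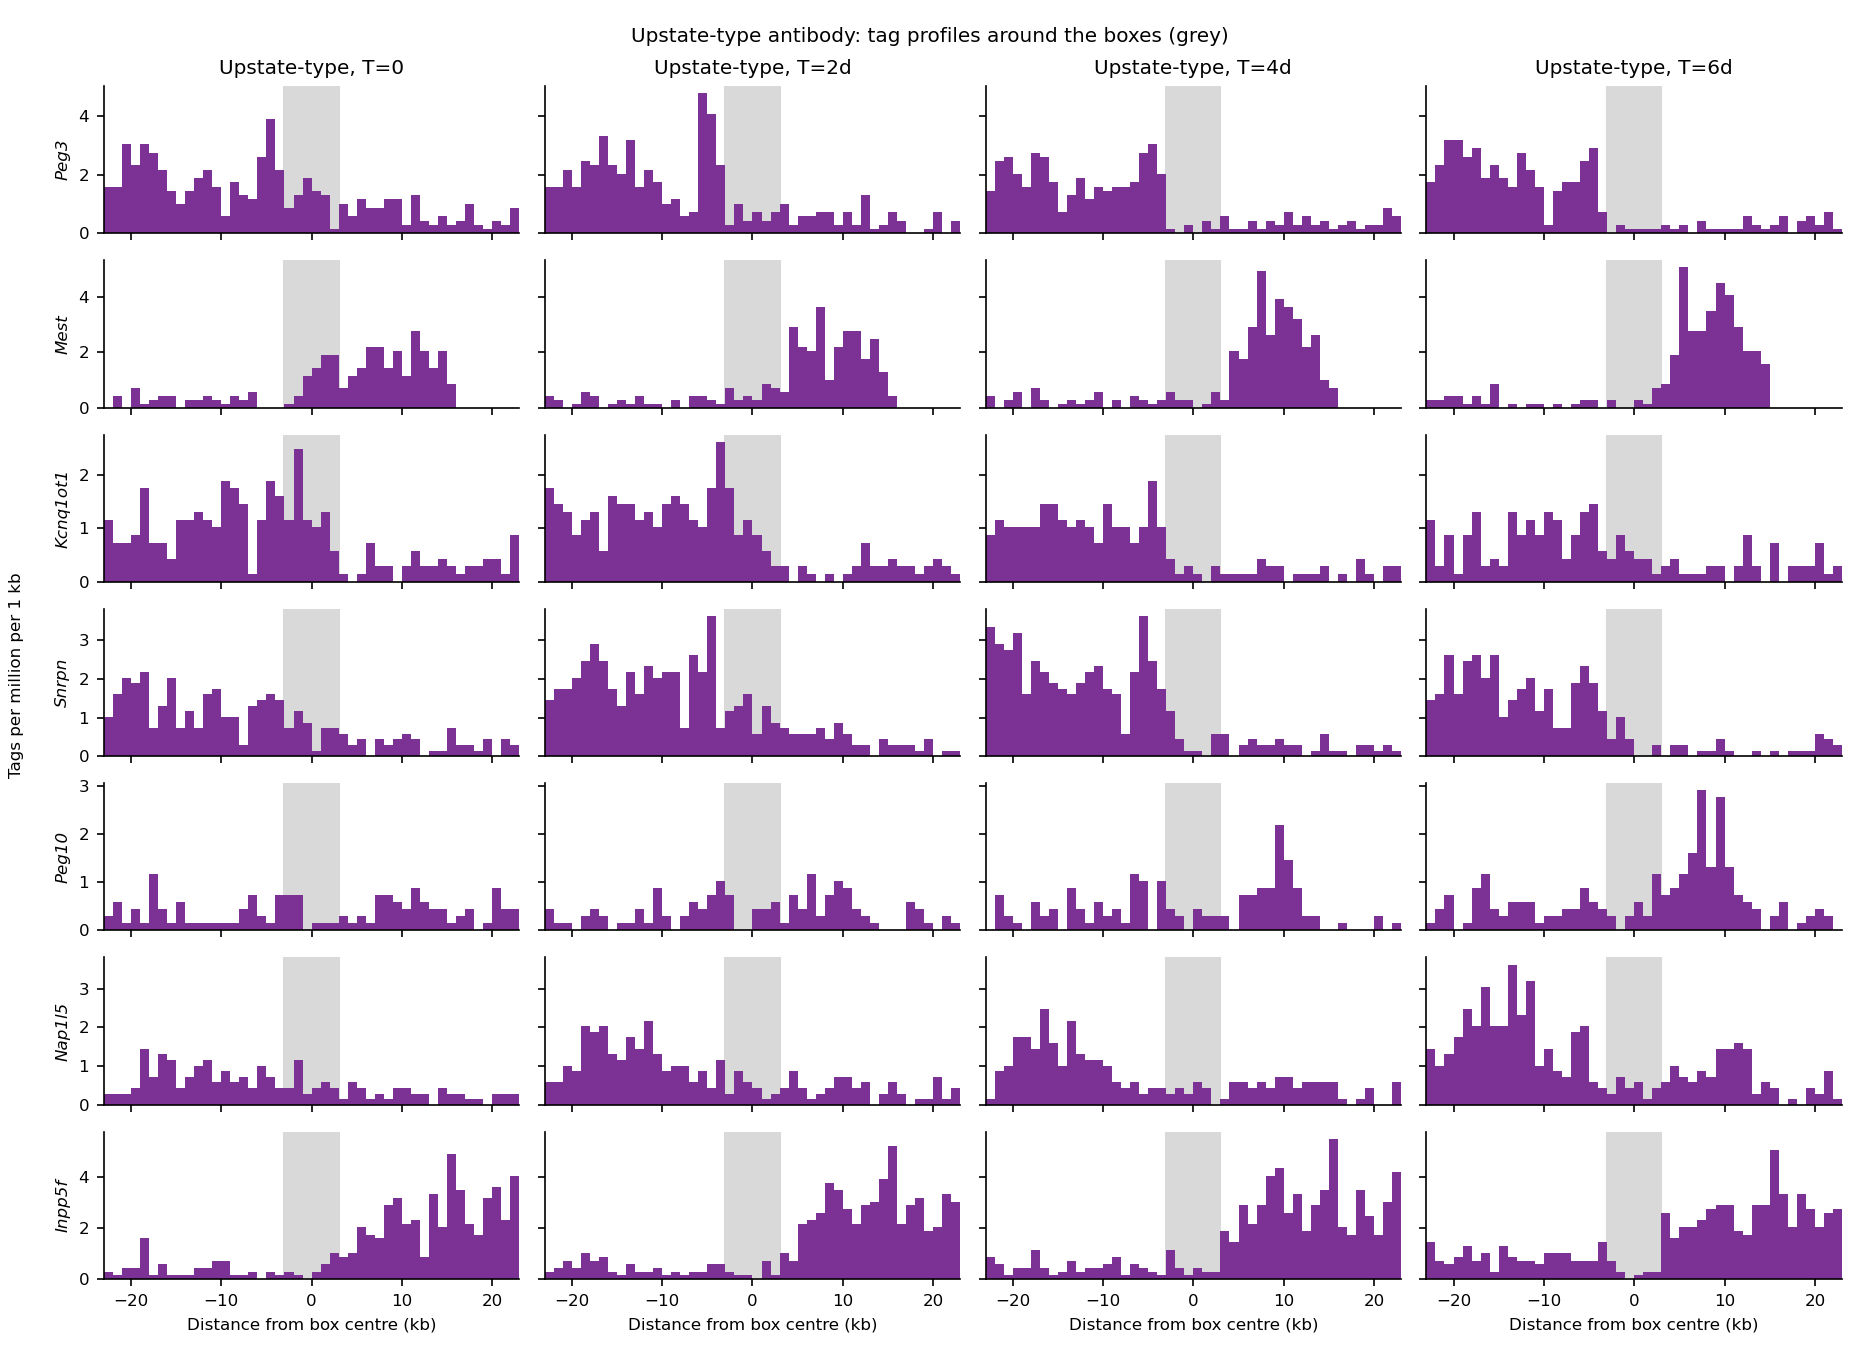
Tags per 1000000 library tags in 1 kb bins against the distance from the box centre for the Upstate-type antibody at the 4 time points; the box is shaded grey, each row has its own vertical scale, and genes on the minus strand (Peg3, Kcnq1ot1, Snrpn and Nap1l5) have their downstream side on the left. Counted before scaling, tags within the Peg3 box go from 48 to 6. The flank on its left holds 263 to 295 tags over the time points and the flank on its right goes from 93 to 40.

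Measured against the upstream flank alone, an alternative chosen after the profiles were seen, the Upstate-type antibody placed 5 of 7 boxes above it at T=0 in place of 2. That flank was the lower of both at every box, and of all 6 kb windows 10.5% stood above the lower of their flanks by the same call. These were Peg3 at 1.72 times, Snrpn at 2.27 times, Kcnq1ot1 at 4.02 times, Mest at 4.44 times and Nap1l5 at 2.07 times. At T=6d there were 0 of 7 by the same measure, against 10.8% of windows. Peg3 stood at 0.500 times its upstream flank, Nap1l5 at 0.638 times and Mest at 1.11 times. Kcnq1ot1 stood at 1.63 times and Snrpn at 2.08 times (P = 0.0342, exact binomial test). For Snrpn the call was thus lost while the fold stayed near that of T=0, with 15 tags in the box in place of 30.

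Across the antibodies limma, fitted to T=0 and T=6d with the antibody as a term, called 1 of 7 boxes lower, against 3.37% of windows tested. Peg3 changed by -1.23 on the log2 scale of tags per 1000000 library tags, with a pseudocount of 0.5 (SE 0.35, limma adjusted P = 0.0494), with fewer tags in 2 of 3 antibodies. The call was lost when either of these 2 antibodies was left out and with boxes of 4 or 10 kb. The other 6 were not called, from -0.85 at Mest (SE 0.34, adjusted P = 0.293) and -0.64 at Kcnq1ot1 (SE 0.29, adjusted P = 0.436) to 0.22 at Peg10. Snrpn stood at -0.43, Inpp5f at -0.14 and Nap1l5 at 0.20. Without lot 58206, limma called 3 of 7 lower against 3.31% of windows: Peg3 at -1.96 (adjusted P = 0.00108), Mest at -1.53 (adjusted P = 0.00819) and Kcnq1ot1 at -1.07 (adjusted P = 0.0394). Snrpn then changed by -0.97 (adjusted P = 0.164), and Inpp5f, Nap1l5 and Peg10 by -0.31, -0.19 and -0.03. The antibodies are not biological replicates, so these P-values measure the spread between antibodies on what may be the same chromatin.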

How the data were processed

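H3K9me3 ChIP-seq libraries were grouped by time point and antibody as labelled. The deposited files used here hold no other value than tag positions: the authors kept uniquely mapped tags, brought libraries of an antibody to equal numbers and extended tags to 300 bp on mm9, the build in the submitters' processing notes. The aligner version is not given in the sources used here. Per-sample columns left unused numbered 0. Members and lists were chosen with earlier results of these data known.

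Tags were counted by interval midpoint in 1 kb bins and 6 kb windows (autosomes 1 to 19, X) using numpy 2.4.6, scipy 1.17.1 and pandas 2.3.3 in Python 3.11.15. Windows averaging at least 2 times the library median over the 6 libraries of T=0 and T=6d were tested (34576). All 7 boxes were kept, of which 5 passed that filter (Inpp5f, at 1.63 times, and Nap1l5, at 1.79 times, did not). Windows called enriched reached 3 times the median at T=0, as the mean of both Abcam lots for the Upstate-type antibody, and with the other Abcam lot for each lot. Calls required a 2-sided Fisher's exact test P below 0.01 and a 1.5-fold change, without adjustment. The study's legend gives this rule for the percentage of reads on repeat classes, and here it was applied to single windows and boxes. P adjusted over all windows (Benjamini-Hochberg) served as an alternative. Flanks of 20 kb on each side were compared by a 2-sided exact binomial test. limma 3.58.1 (R 4.3.3, trend) used a pseudocount of 0.5 and an adjusted P below 0.05. Antibodies pair the libraries: deviations from the time-point means correlated with r = 0.876 (Upstate-type), 0.865 (lot 58206) and 0.462 (lot 638466). Both the Fisher and limma steps were checked on simulated data. Poisson and Clopper-Pearson 95% intervals cover counting error only. Strand came from RefSeq. All 7 members are named, with H19 and a chromosome 4 control region whose limits were read to the nearest kb from the study's figure. Alternatives changed box size, counting, flanks, scaling, threshold, pseudocount, filter and libraries.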

Additional observations from a re-analysis of the deposited data

Results flagged for a closer look

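The change at T=6d differed between antibodies, by the test of the difference itself, at 4 boxes for the Upstate-type antibody and lot 58206 and at 5 boxes for both Abcam lots. The Upstate-type ratio divided by that of lot 58206 was 0.106 at Peg3, 0.310 at Snrpn, 0.322 at Kcnq1ot1 and 0.142 at Mest. The ratio of lot 58206 divided by that of lot 638466 was 3.68 at Peg3, 3.88 at Snrpn, 2.29 at Kcnq1ot1, 2.39 at Peg10 and 3.52 at Mest. Fisher's exact test P ran from 2.58e-09 to 9.36e-04 over these 9. Scaled to the flanks of each box, Kcnq1ot1 did not pass in either comparison (0.484 and 1.66). No cause was tested.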

How the results depend on the processing

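With 1 library per antibody and time point and 6 to 127 tags per box, counting error limits the small changes, and intervals at Peg10, Nap1l5 and Inpp5f leave falls of some size possible. Alternatives for the flanks, without empty bins and the upstream flank alone, were chosen after the data were seen. Of 588 values of single boxes under an alternative, 520 kept direction and side of the threshold, 25 lost a call, 13 gained one and 30 changed direction.

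The 2 boxes called lower at T=2d with the Upstate-type antibody became 0 with 10 kb boxes, 1 by any overlap of the tag, 1 after scaling to the flanks and 0 at an adjusted P below 0.05. The 3 called higher with lot 58206 became 1 with 10 kb boxes, and 4 in the central 4 kb and after scaling to the flanks. The 2 above their flanks with the Upstate-type antibody at T=0 became 1 with 10 kb flanks, 1 without empty bins and 5 against the upstream flank. The Upstate-type antibody and lot 638466 differed at 1 box (Mest), not 0, in the central 4 kb. The 1 box that limma called lower became 0 in the central 4 kb, with 10 kb boxes, by any overlap, with pseudocount 2, with no filter and after scaling to background windows, and ranged from 0 to 3 when 1 antibody was left out. It was 0 without either the Upstate-type antibody or lot 638466 and 3 without lot 58206. Without the antibody block, limma called 0 boxes and 2 of 34583 windows and boxes lower, against 1165 with the pairing. The calls at T=4d and T=6d with the Upstate-type antibody and with lot 638466 stayed within 1.5 times under each alternative run, though the boxes called were not always the same. The cause of these changes was not tested.

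Directions that changed were mostly of values near 1. In the central 4 kb they were the ratio to T=0 at T=2d of Peg10 with the Upstate-type antibody (0.857), the fold over flanks of Peg3 (1.12, T=0) and Kcnq1ot1 (1.01, T=6d) with that antibody and of Inpp5f (0.803, T=0) and Snrpn (1.06, T=6d) with lot 638466, and the Upstate-type change divided by that of lot 638466 at Kcnq1ot1 (1.16), Inpp5f (1.10) and Nap1l5 (1.01). With 10 kb boxes they were the Upstate-type ratios of Nap1l5 at T=2d (1.06) and Inpp5f at T=6d (1.75, exact P = 0.0137) and the log2 change of Inpp5f (0.16). By any overlap they were the Upstate-type ratios of Peg10 at T=4d (1.07) and Inpp5f at T=6d (1.06), and Snrpn over its flanks with lot 638466 at T=6d (1.002). After scaling to the flanks they were the T=6d ratios of Peg10 with the Upstate-type antibody (0.832) and of Kcnq1ot1 with lot 58206 (0.992). Over other flanks, with lot 638466 at T=6d, they were Mest with 10 kb flanks (0.904) and without empty bins (0.930), and Snrpn with flanks from 4 kb outside the box (1.07). Over the upstream flank they were Peg3 (1.72), Snrpn (2.27) and Inpp5f (1.05) at T=0 and Snrpn (2.08), Kcnq1ot1 (1.63) and Mest (1.11) at T=6d with the Upstate-type antibody, and Inpp5f (0.956) at T=0 and Peg10 (0.976) and Mest (0.941) at T=6d with lot 638466. Without lot 58206 the log2 changes of Peg10 (-0.0308) and Nap1l5 (-0.19) changed sign.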
